A study of Mus musculus with 2 samples.

Results

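The Hedgehog pathway was examined in stromal cells of intestinal grafts through 7 of its genes, which were chosen as a named list and not by their values: the receptor gene Ptch1, the ligand-binding antagonist Hhip, the signal transducer Smo, the cytoplasmic inhibitor Sufu and the transcription factors Gli1, Gli2 and Gli3. Earlier results of these data were known when the list was chosen. All 7 genes were found by symbol among 28692 genes of the deposited count tables. Segments of embryonic day 12.5 intestine from EYFP (C57BL/6) mice, obtained by mating EYFP males with C57BL/6Nrj females, large intestine (LI) or small intestine (SI), had been grafted beneath the renal capsule of adult WT mice, and YFP-positive graft-derived mesenchymal stromal cells were sorted 4 weeks later and profiled by droplet single-cell RNA sequencing. The sort kept live Itgb1-positive cells negative for CD45, Ter119, BP3, CD31, EpCAM and L1CAM, so that blood, endothelial, epithelial and glial cells were gated out. Some cells remained that passed marker gates of such types. These were 34 SI and 4 LI cells in the epithelial gate, 11 and 30 in the immune gate, and 1 and 5 in the endothelial gate. Each segment was represented by 1 library, cells are not replicates of a condition, and no test between LI and SI was therefore possible. Intervals below are 95% intervals that cover counting error only.

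In the gut the Hedgehog ligands are made by the epithelium and received by the mesenchyme beneath it. Ligand binding to Ptch1 releases Smo, which in turn lets the Gli proteins escape Sufu and act on transcription. Ptch1, Gli1 and Hhip are themselves switched on by the pathway, so their transcripts are widely used as a readout of Hedgehog signaling, and Ptch1 and Hhip protein both restrain it by binding ligand.

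The LI library held 11568 barcodes and 63348069 unique transcript counts (UMIs), and the SI library 9631 barcodes and 54918006 UMIs. Cells with fewer than 500 genes or with over 10% of UMIs from mitochondrial transcripts were dropped, which left 9873 LI cells with a median of 5288 UMIs and 7910 SI cells with a median of 5682 UMIs. The 2 libraries shared 26 barcode sequences. Cells were placed by marker genes, none of them a Hedgehog gene, into fibroblast (FB) classes named after the study's subsets and into mural classes. These were PDGFRAhi FB (521 LI and 433 SI cells), Fgfr2 FB (1027 and 766), CD81 FB (1332 and 1542), Pi16 FB (652 and 392), fibroblasts passing none of these gates (other FB, 4453 and 2518), smooth muscle cells (SMC, 349 and 469), pericytes (453 and 677), cells passing both the pericyte and the SMC gate (58 and 233) and interstitial cells of Cajal (ICC, 286 and 36). Together the stromal classes held 9131 LI and 7066 SI cells, of which 7985 and 5651 were fibroblasts. A class name stands for cells like that subset in these markers, not for an established identity. All markers of each class were detected in it in both libraries, and the endothelial, epithelial, immune, glial, kidney tubule, mesothelial and erythroid lists had a median of 0 CPM in every stromal class. In pooled counts the kidney tubule list reached 149.8 CPM in SI cells with both mural gates and 20.4 CPM in SI CD81 FB, and the erythroid list 138.8 CPM in SI CD81 FB, against at most 4.27 and 1.31 CPM in any other stromal class. The immune list was highest in LI ICC, at 100.7 CPM in pooled counts, against at most 56.9 CPM in any other stromal class. The part of these transcripts in the levels of those 3 classes was not tested. The classes were not sharply bounded. In LI, 90.1% of CD81 FB, 87.4% of Fgfr2 FB, 70.6% of Pi16 FB and 38.0% of PDGFRAhi FB lay near the cut of a gate, and in SI 63.9%, 88.0%, 64.8% and 27.0% of the same classes. Of cells with both mural gates 82.8% did in LI and 89.3% in SI. LI PDGFRAhi FB also carried the Fgfr2 FB list at a median of 10595 CPM, against 9197 CPM in LI Fgfr2 FB and 2586 CPM in SI PDGFRAhi FB. SMC carried fibroblast markers at a median of 10136 CPM in LI and 7857 CPM in SI, against 34142 and 41722 CPM in other FB. The pericyte list had SI medians of 975 CPM in Fgfr2 FB, 619 in other FB, 438 in CD81 FB and 234 in PDGFRAhi FB. In LI the same classes had 0, 0, 132 and 0 CPM. Pi16 FB went the other way, with 74 CPM in LI and 0 in SI. The part of these transcripts in the LI to SI ratios was not tested.

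Ptch1 (ENSMUSG00000021466, chr13:63508328-63573598, minus strand, mm10) varied widely over the fibroblast classes, in 1 order in both libraries. Levels are given as CPM, the UMIs of the gene scaled to a fixed total by all UMIs of the pooled class. In PDGFRAhi FB, the subepithelial subset that surrounds the crypt and villus epithelium, Ptch1 stood at 330.6 CPM (310.3 to 351.8) in LI and at 279.1 CPM (260.1 to 299.1) in SI. These were the highest levels of any class in either library. Fgfr2 FB followed at 250.0 CPM (237.0 to 263.4) in LI and 156.3 CPM (145.4 to 167.8) in SI. Other FB held 126.7 and 116.9 CPM, and CD81 FB 60.2 and 56.5 CPM. Pi16 FB, which carry markers of adventitial fibroblasts, were the lowest fibroblasts in both libraries at 20.8 CPM (17.7 to 24.4) in LI and 34.5 CPM (28.8 to 40.9) in SI. The fibroblast classes thus had the same order of Ptch1 levels in both libraries, from PDGFRAhi FB through Fgfr2 FB, other FB and CD81 FB to Pi16 FB.

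Outside the fibroblasts, Ptch1 stood at 206.4 CPM in LI and 143.3 CPM in SI SMC and at 81.9 and 48.6 CPM in pericytes. Cells passing both mural gates held 18.4 and 20.9 CPM. ICC held 87.3 CPM in LI, and 41.8 CPM (16.8 to 86.2) in the 36 SI cells. The few cells gated as immune, endothelial or epithelial, 39 in LI and 46 in SI with median depths of 3947 and 7985 UMIs, gave 5 Ptch1 UMIs (19.3 CPM) and 3 UMIs (6.09 CPM). In LI the intervals of Pi16 FB and of the cells with both mural gates overlapped that of the nonstromal cells (6.25 to 44.9), and in SI those of the cells with both gates did (nonstromal 1.26 to 17.8), while that of Pi16 FB lay above it. Over the 8 classes with at least 50 cells in both libraries, the highest level was 18.0 times the lowest in LI and 13.3 times in SI. Along this order each class differed from the next beyond counting error, except Pi16 FB and the cells with both gates in LI, and in SI Fgfr2 FB and SMC, and CD81 FB and pericytes.

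**Figure D1:**
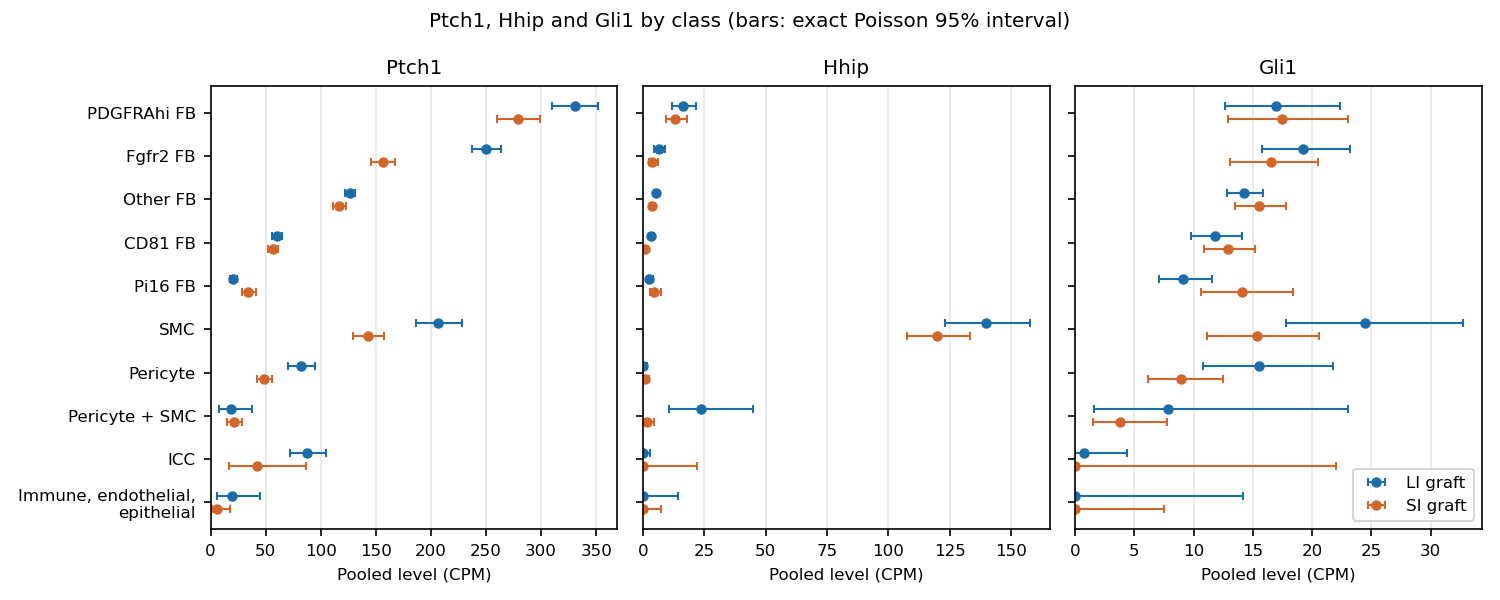
Pooled levels of Ptch1, Hhip and Gli1 (x axis, CPM, a scale of its own for each gene) in 10 cell classes (y axis) of the LI and SI libraries, with exact Poisson 95% intervals. Ptch1 was highest in PDGFRAhi FB at 330.6 CPM in LI and 279.1 CPM in SI, Hhip in SMC at 139.6 and 119.9 CPM, and Gli1 stayed between 9.13 and 19.2 CPM over the fibroblast classes.

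Set against all other fibroblasts of its own library, Ptch1 was 3.01-fold higher in PDGFRAhi FB of LI (log2 ratio 1.58, 1.48 to 1.68) and 3.01-fold higher in those of SI (1.58, 1.47 to 1.69). Log2 ratios were taken of CPM plus 1. The ratio in Fgfr2 FB was 1.21 (1.13 to 1.30) in LI and 0.64 (0.53 to 0.76) in SI. It was -1.21 and -1.19 in CD81 FB. In Pi16 FB it was -2.70 (-2.93 to -2.48) in LI and -1.72 (-1.97 to -1.48) in SI. Pi16 FB were the deepest fibroblasts, with medians of 9533.5 and 9574.5 UMIs, and the shares of cells with a Ptch1 UMI followed the same order after each cell was thinned to 2000 UMIs. At that depth 48.1% of PDGFRAhi FB in LI and 38.6% in SI had a Ptch1 UMI, against 5.26% and 6.91% of Pi16 FB. Without thinning, the shares in PDGFRAhi FB were 74.7% and 72.5%, and in Pi16 FB 18.4% and 24.7%.

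Hhip (ENSMUSG00000064325, chr8:79965851-80058006, minus strand) had a different distribution and was concentrated in SMC. The SMC level was 139.6 CPM (123.0 to 157.7) from 257 UMIs in LI and 119.9 CPM (107.6 to 133.3) from 344 UMIs in SI. All fibroblasts together held 5.36 CPM and 3.74 CPM. SMC were therefore 26.1-fold higher than fibroblasts in LI (log2 ratio 4.47, 4.233 to 4.697) and 32.0-fold higher in SI (4.67, 4.42 to 4.92). Pericytes, the other mural class, held none in 453 LI cells, where 3 UMIs would have been 1.37 CPM, and 1.05 CPM (0.29 to 2.69) in SI. No Hhip UMI was found in ICC or in nonstromal cells of either library.

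Within SMC, Hhip was held by a minority of cells. A UMI of it was found in 28.08% of SMC in LI and in 20.04% in SI, and the 15 LI and 26 SI cells with at least 5 UMIs held 42.4% and 64.8% of all SMC Hhip UMIs. The highest single cell had 13 UMIs in LI and 21 in SI. Thinned to 2000 UMIs, 19.8% and 14.6% of SMC were positive, against 1.12% and 0.68% of fibroblasts. Cells passing both mural gates held 23.6 CPM in LI, from 9 UMIs in 3 cells, and 1.61 CPM in SI, from 3 UMIs in 1 cell.

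Among fibroblasts the highest Hhip level was again in PDGFRAhi FB, at 16.3 CPM (12.1 to 21.6) in LI and 13.3 CPM (9.38 to 18.2) in SI. The log2 ratio over other fibroblasts was 1.62 (1.18 to 2.03) and 1.86 (1.35 to 2.34). The other fibroblast classes ranged from 2.72 to 6.59 CPM in LI and from 0.87 to 4.70 CPM in SI. CD81 FB of SI were the lowest of these, with 10 UMIs in 1542 cells.

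Gli1 (ENSMUSG00000025407, chr10:127329882-127341974, minus strand), the transcription factor gene most often used to mark Hedgehog-responding stroma, varied less than Ptch1 over the fibroblast classes. Fibroblasts held 13.7 CPM (12.7 to 14.8) in LI and 14.8 CPM (13.6 to 16.1) in SI. The fibroblast classes ranged from 9.13 CPM in Pi16 FB to 19.2 CPM in Fgfr2 FB of LI, and from 12.9 CPM in CD81 FB to 17.4 CPM in PDGFRAhi FB of SI. SMC held 24.4 CPM (17.8 to 32.7) in LI and 15.3 CPM (11.1 to 20.6) in SI. Pericytes held 15.6 and 8.93 CPM. Cells with both mural gates held 7.88 CPM (1.63 to 23.0) in LI and 3.76 CPM (1.51 to 7.74) in SI, and in SI both they and pericytes (6.19 to 12.5) lay below the fibroblast interval. ICC were the lowest stromal class in LI, with 1 Gli1 UMI in 286 cells (0.787 CPM, 0.02 to 4.38). The 36 SI ICC held none, with an upper limit of 22.1 CPM, so they could not be ranked in SI. With ICC left aside as a class of under 50 cells in SI, no class differed from the next in the order of Gli1 levels beyond counting error, except that pericytes exceeded the cells with both mural gates in SI (log2 ratio 1.06). Classes farther apart in the order did differ, since in LI the intervals of SMC and of Fgfr2 FB (15.8 to 23.2) lay above that of Pi16 FB (7.07 to 11.6).

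Gli1 was detected sparsely. A UMI was present in 7.81% of LI and 8.65% of SI fibroblasts, and in 2.93% (2.56 to 3.34) and 3.18% (2.72 to 3.69) after thinning to 2000 UMIs. Of nonstromal cells, 0 of 29 in LI and 0 of 41 in SI were positive at that depth, where 3 cells would have been 10.3% and 7.32%. The log2 ratio of PDGFRAhi FB to other fibroblasts was 0.31 (-0.10 to 0.70) in LI and 0.24 (-0.18 to 0.64) in SI, so that a difference of the size found for Ptch1 lay outside both intervals. Pi16 FB were lower in LI (-0.61, -0.96 to -0.28), with an interval that included 0 in SI (-0.08, -0.48 to 0.31).

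The remaining members transmit or restrain the signal. Smo (ENSMUSG00000001761, chr6:29735503-29761365, plus strand) stood at 90.6 CPM (80.2 to 102.1) in LI PDGFRAhi FB and 103.6 CPM (92.2 to 116.1) in SI PDGFRAhi FB. It stood at 45.5 and 51.4 CPM in Pi16 FB, the lowest fibroblasts. PDGFRAhi FB were the highest fibroblasts for this member, with log2 ratios over other fibroblasts of 0.45 and 0.57, below 2-fold, and they exceeded Fgfr2 FB, the next in order, beyond counting error in SI but not in LI. ICC held 87.3 CPM in LI and 107.6 CPM (63.8 to 170.1) in SI, both within the intervals of PDGFRAhi FB, although Gli1 was nearly undetected in LI ICC. Sufu (ENSMUSG00000025231, chr19:46396896-46488804, plus strand) ranged from 8.24 to 16.0 CPM in LI and from 8.09 to 18.5 CPM in SI over the classes of at least 50 cells. Fgfr2 FB exceeded other fibroblasts for Sufu in both libraries (log2 ratios 0.40 and 0.52, intervals above 0), and PDGFRAhi FB did so in LI (0.50) with an interval including 0 in SI (-0.08, -0.59 to 0.41).

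Gli2 (ENSMUSG00000048402, chr1:118834132-119053619, minus strand), the main activator of the family, and Gli3 (ENSMUSG00000021318, chr13:15463235-15730026, plus strand), which mostly yields a repressor, were lower in pericytes than in fibroblasts as a whole. Over all fibroblasts Gli2 stood at 13.6 CPM in LI and 16.9 CPM in SI, and Gli3 at 23.2 and 26.9 CPM. Pericytes held 7.32 and 3.94 CPM of Gli2, with log2 ratios to fibroblasts of -0.81 (-1.50 to -0.17) and -1.86 (-2.49 to -1.25). Their Gli3 level was 15.1 and 12.9 CPM, with ratios of -0.59 and -1.01. PDGFRAhi FB, where Ptch1 and Hhip were highest among fibroblasts, held 17.3 CPM of Gli3 in LI (12.9 to 22.7) and 20.9 CPM in SI (16.0 to 26.9), with intervals that overlapped those of Pi16 FB in both libraries. Their Gli2 level was 10.7 CPM in LI and 11.9 CPM in SI, with log2 ratios of -0.35 (-0.85 to 0.13) and -0.51 (-1.01 to -0.05). Gli2 in Pi16 FB was 7.49 CPM in LI and 15.9 CPM in SI.

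**Figure D2:**
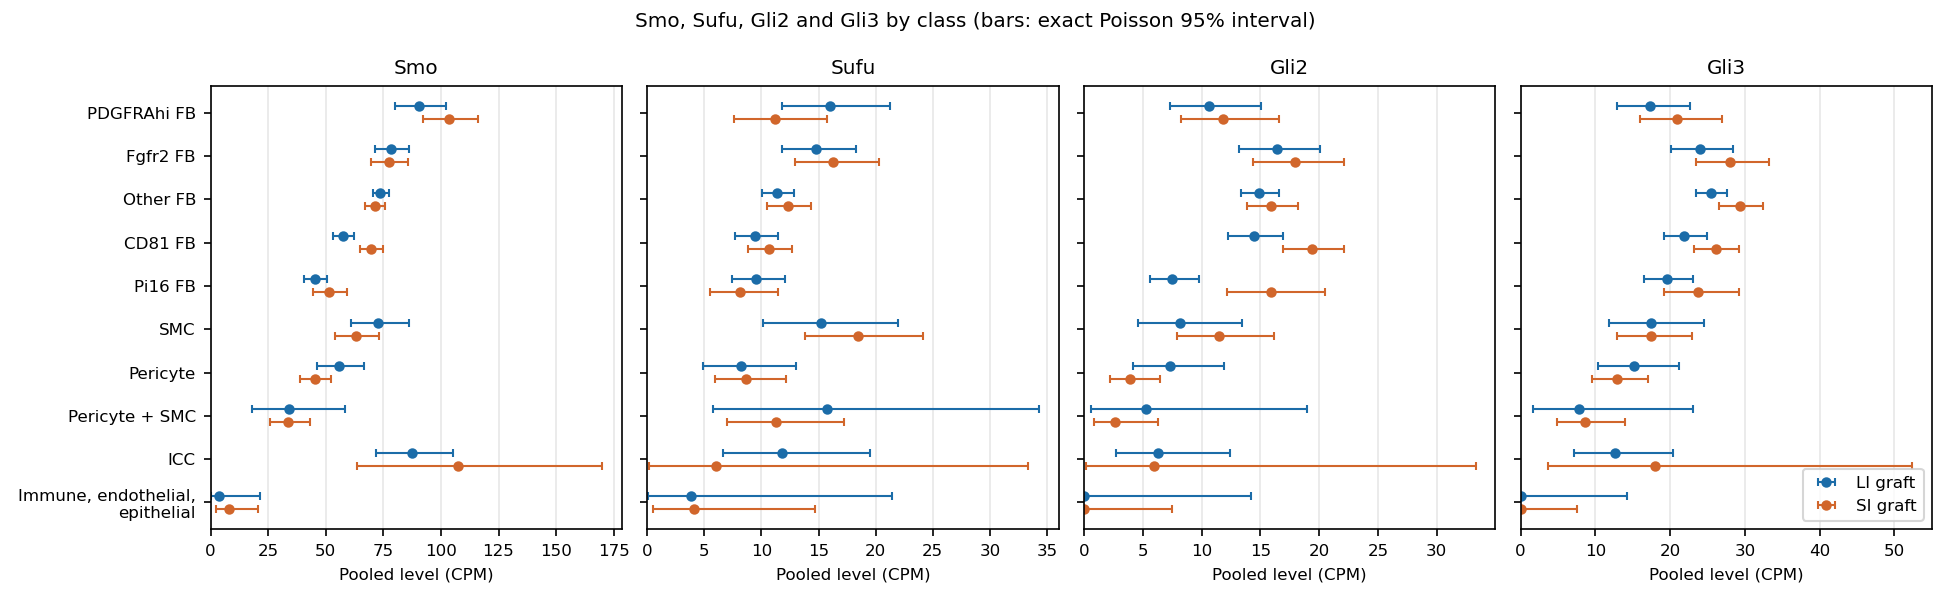
Pooled levels of Smo, Sufu, Gli2 and Gli3 (x axis, CPM, a scale of its own for each gene) by cell class (y axis) in the LI and SI libraries, with exact Poisson 95% intervals. The Gli2 and Gli3 levels of pericytes lie below those of each fibroblast class in both libraries, some with overlapping intervals, and Smo spans 45.5 to 103.6 CPM over the fibroblast classes.

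Each ratio was read against the share of all genes that reached the same size in both libraries, a gene being compared where it had at least 10 CPM in the class or in the fibroblasts it was set against, in each library. In PDGFRAhi FB, 3.55% of 8593 genes were at least 2-fold higher than in other fibroblasts in both libraries, and Ptch1 was among them. Hhip reached the same size but was compared only because PDGFRAhi FB brought it to 10 CPM, so it had to differ and is not counted. No member was 2-fold lower, where 3.36% of genes were. In Pi16 FB, 1 of 6 members compared, Ptch1, was 2-fold lower, with 2.96% of all genes lower and 1.61% higher. The same single member was 2-fold lower in CD81 FB, where 0.994% of genes were. None of 6 members reached 2-fold in both libraries in Fgfr2 FB in either direction (0.657% of genes higher and 1.61% lower) or was 2-fold lower in pericytes (7.14% of genes). In cells with both mural gates Ptch1 was 2-fold lower, with 8.78% of genes lower. Gli2 and Gli3 reached the same size there. Both were under 10 CPM in these cells and were compared only through the fibroblasts, so they are not counted. In SMC none of the other 6 members was 2-fold higher in both libraries, with 5.09% of genes higher. Hhip, which was under 10 CPM in fibroblasts, entered that comparison only through SMC, and its ratio there is a description. The low-side ratio of Gli2 in LI cells with both gates rested on 2 UMIs and had an interval that included 0 (-1.23, -3.16 to 0.45).

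Other genes of the pathway were taken as lists by role. Of 8 genes for ligands and their release, 4 reached 10 CPM in a class, and the ligands themselves were almost absent from stroma: over all fibroblasts Shh gave 2 UMIs in LI and 0 in SI, Ihh 2 and 4, and Dhh 3 and 2. Of the ciliary and cytoplasmic regulators 11 of 14 reached 10 CPM, as did all 6 genes known to respond in gut mesenchyme. The pathway genes compared numbered 21 in PDGFRAhi FB. Of these, the responding genes Foxf1, Foxf2 and Ccnd1 were at least 2-fold higher in both libraries (3.55% of all genes), as was Foxl1, which entered only through its level in PDGFRAhi FB. The co-receptor genes Cdon, Boc and Gas1 were at least 2-fold lower (3.36% of all genes).

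Foxl1, a forkhead factor gene of the subepithelial mesenchyme, stood at 44.7 CPM in LI and 52.0 CPM in SI PDGFRAhi FB. It was 31.8- and 30.2-fold higher there than in other fibroblasts. Foxf2 stood at 86.0 and 74.7 CPM in PDGFRAhi FB (log2 ratios 2.40 and 2.05) and at 1.77 and 3.13 CPM in Pi16 FB. Foxf1, which with Foxf2 is a classical mesenchymal target of epithelial Hedgehog ligand, stood at 340.6 and 331.4 CPM in PDGFRAhi FB (1.55 and 1.39). Its level was also above the fibroblast level in SMC (309.1 and 265.6 CPM), pericytes (325.5 and 230.7 CPM) and ICC (384.8 and 472.3 CPM). Foxf1 was thus no lower in LI ICC, where Gli1 was nearly undetected, than in LI PDGFRAhi FB. Bmp4, which encodes a secreted ligand of the BMP family, stood at 563.5 and 408.5 CPM in PDGFRAhi FB, 567.4 and 446.6 CPM in Fgfr2 FB and 38.4 and 60.1 CPM in Pi16 FB.

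The co-receptor genes were lower in PDGFRAhi FB, but not there alone. Cdon and Gas1 were also at least 2-fold lower in Fgfr2 FB of both libraries (1.61% of all genes). Cdon, Boc and Gas1 were so in pericytes (7.14% of all genes) and in cells with both mural gates (8.78%). Some of these genes, such as Cdon in Fgfr2 FB, were under 10 CPM in the class and were compared only through the fibroblasts. Gas1, whose product helps Ptch1 to bind ligand, stood at 626.0 CPM in LI and 546.8 CPM in SI Pi16 FB, against 76.3 and 18.1 CPM in PDGFRAhi FB. Cdon, a co-receptor of the immunoglobulin superfamily, stood at 31.6 and 42.0 CPM in Pi16 FB and at 1.07 and 0.619 CPM in Fgfr2 FB. Boc, its close relative, stood at 17.3 and 6.63 CPM in PDGFRAhi FB, with log2 ratios of -1.14 and -2.04. Its SI level was under 10 CPM, so it was compared in SI only through the other fibroblasts. In Pi16 FB, 2 of 20 pathway genes compared, Cdon and Gas1, were 2-fold higher (1.61% of all genes), and 6 were 2-fold lower (2.96% of all genes), namely Scube1, Scube2, Foxf1, Foxf2, Bmp4 and Ccnd1. Of these, at least Foxf2 and Scube1 were under 10 CPM in Pi16 FB of both libraries. They were compared only through the other fibroblasts, so their ratios there are a description. Scube1, one of the secreted proteins that help to release lipid-bound ligand, was highest in Fgfr2 FB at 143.1 and 128.0 CPM and stood at 7.63 and 7.57 CPM in Pi16 FB.

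**Figure D3:**
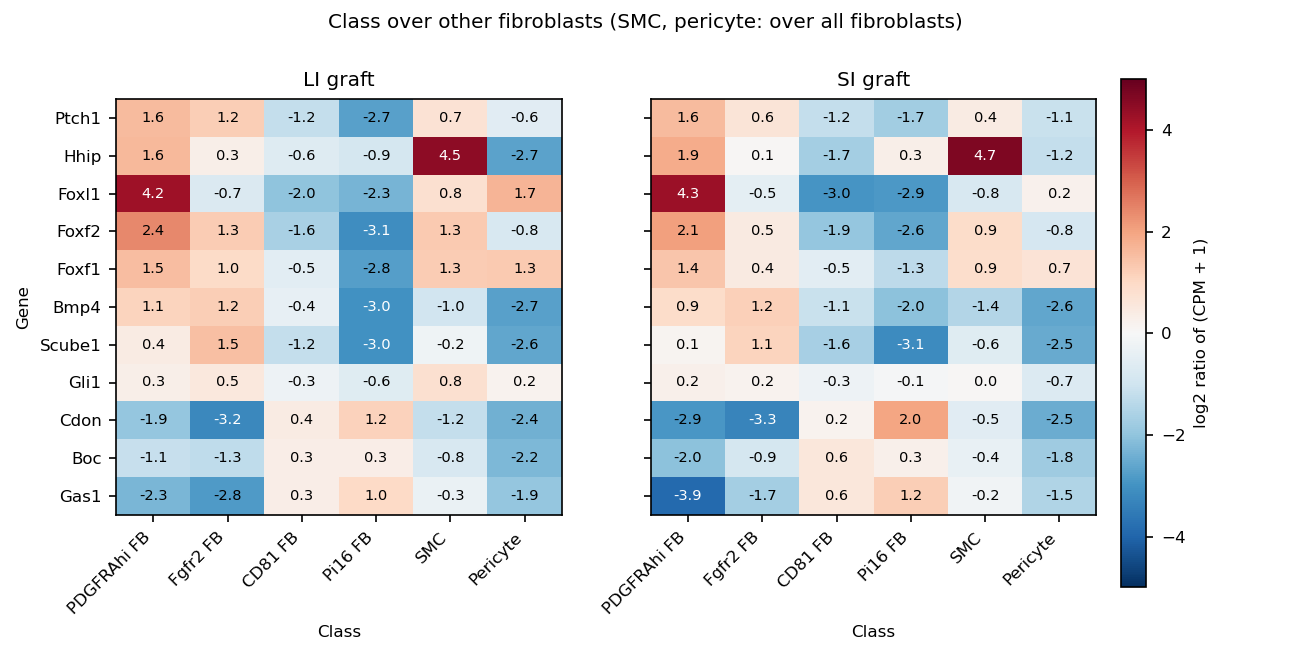
Log2 ratio of CPM plus 1 (color and number) of 11 pathway genes (rows) in 6 classes (columns) over the other fibroblasts of the same library, or over all fibroblasts for SMC and pericytes, for LI (left) and SI (right). Ptch1, Hhip and the Fox genes are positive in PDGFRAhi FB and Cdon, Boc and Gas1 negative there, while Hhip has its highest ratios, 4.47 and 4.67, in SMC.

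The genes whose levels over the classes were most like those of a member were ranked by Pearson correlation of log2(CPM + 1) over 16 points, 8 classes in each of the 2 libraries, which share libraries and marker gates. Ptch1 was most like Foxf2 (r = 0.96), followed by Mr1, Dcaf8, Zyg11b and Zer1 (0.95 to 0.94). Among members, Smo correlated with it at 0.92, Gli1 at 0.82 and Hhip at 0.40. Hhip was most like Pdzrn4 (0.94), Met, Mical3, Gmpr and Nqo1 (0.91 to 0.87). Gli1 was most like Abca5, Pard3b, Selo, Zfp30 and Appl1 (0.91 to 0.88).

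Between the segments the members differed little over all fibroblasts. The log2 ratio of LI to SI was 0.20 for Ptch1 (0.14 to 0.25), with levels of 123.2 CPM in LI and 107.3 CPM in SI. It was -0.11 for Gli1 (-0.26 to 0.05), and 0.42 for Hhip (0.18 to 0.67). The Ptch1 and Hhip values are pooled values that combined opposite directions in female and male cells, as given below. Gli2 (-0.29), Gli3 (-0.21) and Smo (-0.09) were lower in LI with intervals below 0, and Sufu stood at -0.05 (-0.22 to 0.12). None of 6 members at 10 CPM or more, and none of 21 pathway genes, passed 2-fold in either direction, as 3.5% of 8640 genes did. With 1 library a segment, these differences cannot be told apart from differences between libraries.

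Within classes the Ptch1 ratio was not uniform. It was 0.67 (0.55 to 0.80) in Fgfr2 FB, 0.74 (0.44 to 1.04) in pericytes and 0.52 (0.32 to 0.73) in SMC. It was 0.24 (0.11 to 0.38) in PDGFRAhi FB and 0.09 (-0.07 to 0.25) in CD81 FB. Pi16 FB went the other way for Ptch1, with -0.70 (-1.03 to -0.36). Their Gli2 ratio was -0.995 (-1.49 to -0.49), in the same direction as Gli2 over all fibroblasts. Hhip in SMC gave 0.22 (-0.02 to 0.45), a pooled value that combined opposite directions, 1.38 (1.03 to 1.74) in female and -1.65 (-3.23 to -0.41) in male cells as defined by sex transcripts below, and in CD81 FB 1.23 (0.61 to 1.76) from 36 LI and 10 SI UMIs.

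By the study's description the LI library pooled several grafts, and the cells of each library came from more than 1 individual, since some carried Xist and others UMIs of the Y-linked genes Ddx3y, Eif2s3y, Kdm5d and Uty. The labels give no sex of embryos or hosts, and the sets were defined here from these transcripts, so they separate individuals as much as sexes. Of fibroblasts, 6498 in LI were female and 736 male, with medians of 5171 and 8784.5 UMIs. In SI 3312 were female and 1285 male, with medians of 5414.5 and 7715 UMIs. Ptch1 stood at 145.9 CPM (142.1 to 149.8) in female and 35.3 CPM (31.0 to 40.0) in male fibroblasts of LI, a log2 ratio of male to female of -2.02 (-2.20 to -1.84). In SI it stood at 111.4 and 93.0 CPM (-0.26, -0.37 to -0.15). The LI sets were thus far apart and their intervals did not overlap, whereas the SI sets were close. The LI sets also differed in class make-up, with 27 PDGFRAhi FB and 24 Fgfr2 FB among male cells and 471 and 959 among female cells. Within LI classes the Ptch1 ratio was -1.38 (-1.75 to -1.03) in CD81 FB, -1.42 (-2.31 to -0.61) in Pi16 FB and -2.09 (-2.39 to -1.80) in other FB. The part of class make-up in the pooled ratios was not tested.

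Ptch1 was the 1 member of 6 that was 2-fold lower in male LI fibroblasts, where 9.41% of 8760 genes were, and none of 6 was in SI, where 0.487% of genes were. Hhip stood at 0.860 CPM, from 6 UMIs, in male and 6.43 CPM in female LI fibroblasts. Gli1 was 8.32 and 15.1 CPM in LI (-0.79, -1.16 to -0.43) and 11.3 and 16.6 CPM in SI (-0.52, -0.81 to -0.24). Smo was 41.4 and 75.1 CPM in LI (-0.84). Bmp4, among the 5 of 20 pathway genes that were 2-fold lower in LI, was 61.6 and 335.6 CPM, and in SI 213.3 and 223.0 CPM.

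The order of Ptch1 with PDGFRAhi FB highest, then Fgfr2 FB, then SMC held in the female and the male set of both libraries. In LI the male order rested on 27 PDGFRAhi FB, 24 Fgfr2 FB and 17 SMC, each a class of under 50 cells. Among cells of unclear sex, 751 fibroblasts in LI and 1054 in SI, it held in LI, whereas in SI SMC stood above Fgfr2 FB. In male PDGFRAhi FB of LI, 27 cells, Ptch1 stood at 285.7 CPM (214.0 to 373.8), and in the 471 female cells at 340.1 CPM (318.2 to 363.0), so these intervals overlapped. In other FB of LI the male level was 33.7 CPM and the female level 146.2 CPM. Taken within female cells the LI to SI ratio of Ptch1 over fibroblasts was 0.39, and within male cells -1.37, so its direction differed between the sets. For Hhip the corresponding values were 0.63 and -1.05. Hhip in SMC likewise differed between sets: in SI it stood at 60.1 CPM in 247 female cells, 122.7 CPM in 119 male cells and 307.1 CPM in 103 cells of unclear sex, and in LI at 157.9 CPM in 298 female cells, 38.3 CPM, from 5 UMIs, in 17 male cells and 28.6 CPM, from 4 UMIs, in 34 cells of unclear sex.

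Other genes differed between the sets as well, and those named here were chosen after their values were seen. Cd74, the invariant chain of MHC class II, stood at 902.8 CPM in male and 53.2 CPM in female LI fibroblasts and at 610.5 and 78.0 CPM in SI, and the chemokine gene Cxcl9 stood at 1119 and 107.5 CPM in LI and 1422 and 190.9 CPM in SI. Nkx2-3, a gut mesenchyme homeobox gene, stood at 114.7 and 180.3 CPM in LI and 299.4 and 311.8 CPM in SI. Their part in the Ptch1 difference was not tested.

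**Figure D4:**
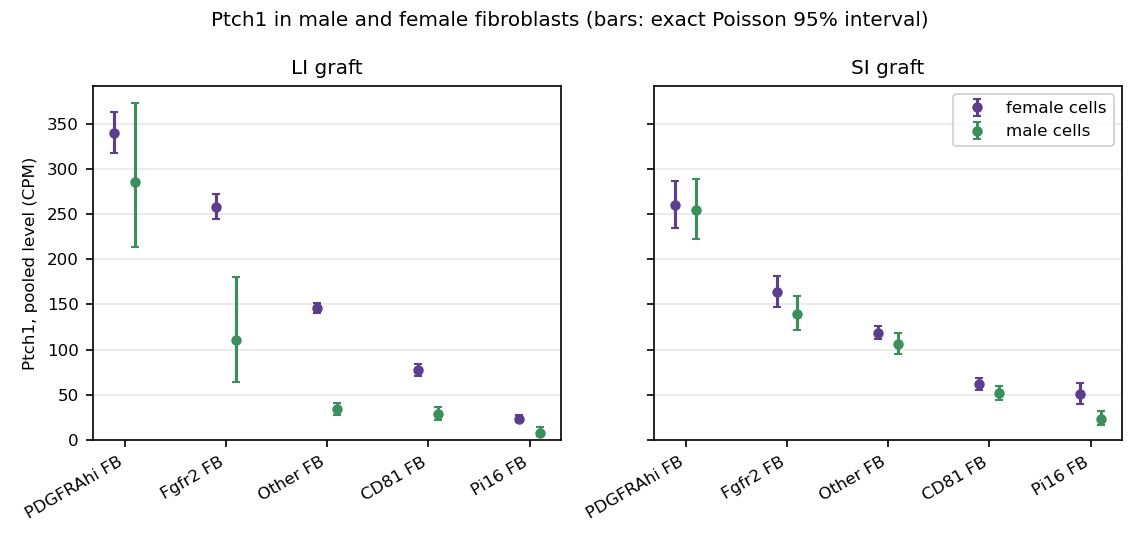
Ptch1 level (y axis, CPM) in female and male cells of 5 fibroblast classes (x axis) in LI (left) and SI (right), with exact Poisson 95% intervals. Male other FB of LI lie at 33.7 CPM against 146.2 CPM in female cells, while in SI the sets lie at 106.2 and 118.9 CPM.

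Whether the members were found in the same cells was asked at 2000 UMIs a cell, which left out 572 LI and 364 SI fibroblasts of lower depth. The number of fibroblasts with UMIs of both genes was compared with the number expected if detection were independent within each class. Gli1 and Ptch1 were found together in 77 LI cells against 52.6 expected, a ratio of 1.46 (1.15 to 1.83), and in 48 SI cells against 32.5, a ratio of 1.48 (1.089 to 1.958). Ptch1 and Hhip were found together in 34 LI cells against 23.1 (1.47, 1.02 to 2.06) and in 17 SI cells against 8.23 (2.07, 1.20 to 3.31). These were the 2 of 21 pairs of members whose interval lay above 1 in both libraries, and no pair lay below 1 in both. The same count over pairs of all genes was not computed. Expected numbers allowed for gated class alone, and other FB made up 3932 of 7413 LI fibroblasts. Differences within a class or between individuals were not allowed for. With clusters in place of gates the Gli1 and Ptch1 ratios were 1.30 (1.02 to 1.63) in LI and 1.41 (1.04 to 1.86) in SI. At 1000 UMIs a cell the Gli1 and Ptch1 ratios were 1.37 (0.85 to 2.10) in LI and 1.26 (0.67 to 2.16) in SI, so that at that depth both intervals included 1. Gli1 and Hhip lay above 1 in LI, with an interval that included 1 in SI. In SMC, Ptch1 and Hhip were together in 30 LI cells against 21.1 (1.42, 0.96 to 2.03) and in 31 SI cells against 15.8 (1.964, 1.335 to 2.79).

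**Figure D5:**
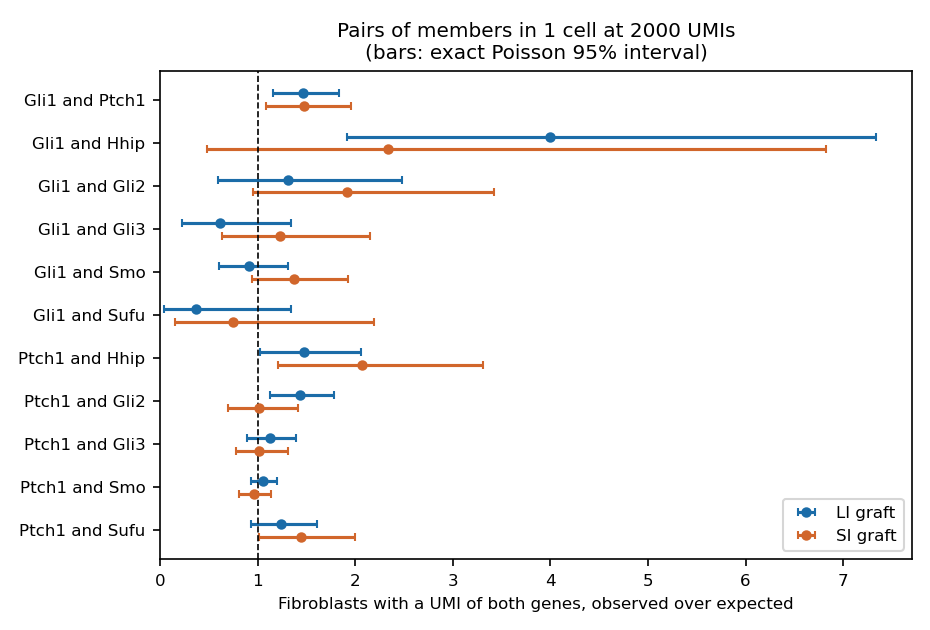
Fibroblasts with a UMI of both members of a pair, observed over expected (x axis, dashed line at 1), for the 11 pairs that include Gli1 or Ptch1 (y axis) in LI and SI, with exact Poisson 95% intervals. Gli1 and Ptch1 lie at 1.46 and 1.48 and Ptch1 and Hhip at 1.47 and 2.07, with all 4 intervals above 1.

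Genes detected more often in Gli1-positive fibroblasts were sought across 4545 genes, with 217 Gli1-positive of 7413 LI fibroblasts and 168 of 5287 SI fibroblasts. Ratios were taken within class and then combined. Ptch1 had a ratio of 1.49 (1.25 to 1.77) in LI and 1.502 (1.18 to 1.92) in SI, and in another random thinning of the same cells 1.51 and 1.79. Hhip had a ratio of 4.41 (2.33 to 8.38) in LI and 2.45 (0.76 to 7.91) in SI, and in the second thinning 3.34 and 0.90, so that its direction in SI depended on the draw. The other members did not have intervals above 1 in both libraries. A ratio of at least 1.5 in both libraries was reached by 0.748% of the genes, 34 in number, and a ratio above 1 in both libraries by 1449, the median ratio being 1.01 in each library. Ptch1, at 1.49 in LI, did not reach 1.5 in both.

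Eva1a, which encodes a membrane protein linked to autophagy, headed this ranking with 2.18 (1.33 to 3.57) in LI and 2.37 (1.45 to 3.87) in SI, followed by Zdhhc17, Tbc1d23, Slco2b1, Git1, Efnb2, 2810433D01Rik, Gm22, Acox3 and Apaf1. Of these 10 genes, 5 had intervals above 1 in both libraries. The lowest ratios were those of Tmem200a, Jam2, Khdrbs3, Orc6 and Crot. The ranking did not hold on another draw: 2 of the 34 genes again reached 1.5 in both libraries, and of the 10 highest only Eva1a (1.54 and 1.87) did. Genes picked as the extremes of 1 draw are bound to be less extreme in another.

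A 9-base sequence bound by Gli proteins, GACCACCCA (TGGGTGGTC on the other strand), was searched in 300 bases around the start of each gene in RefSeq promoters (GRCm38). It was found in none of the 6 member promoters listed (Gli1 had no entry) and in 83 of 32851 promoters (0.253%).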

How the data were processed

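The authors ran Cell Ranger 3.1.0 against mm10 and deposited, for each library, a filtered matrix of raw UMI counts per gene and barcode (3′ v3 or 5′ chemistry, which library had which is not given in the sources used here). Their later steps used Seurat 3. Counts were used as deposited. The cell filter required 500 genes and allowed 10% mitochondrial UMIs. Classes were set by marker gates whose lists were fixed by name and whose thresholds were set from marker values once the files were seen. Barcodes in incompatible gates were left out, and no doublet caller was run. Members, pathway lists and markers were chosen with earlier results of these data known. All members and the listed pathway genes were open to being named. Results for 1 gene of the pathway lists are not reported here. Among co-detected genes the 10 highest and 5 lowest ratios were named, ranked by the library nearer 1, and for likeness the 5 highest correlations.

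UMIs were summed by class and library and given as CPM with exact Poisson intervals, shares with Clopper-Pearson intervals, and ratios of CPM plus 1 with exact binomial intervals. Detection ratios were combined over classes by Mantel-Haenszel. UMIs are counted molecules, and intervals and limits of 3 counts cover counting error only. With 1 library a group, no test or p-value was computed. Coordinates are from GENCODE M21. Python 3.11.15, numpy 2.4.6, scipy 1.17.1 and edgeR 4.0.16 (TMM factors) were used, and the interval code was tested on data with known answers.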

Additional observations from a re-analysis of the deposited data

Results flagged for a closer look

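Ihh, the main Hedgehog ligand gene of intestinal epithelium, was detected at 65.5 CPM in the 34 SI cells that passed the epithelial gate, from 28 UMIs in 15 cells, where 3 UMIs would have been 7.02 CPM. It was singled out because these cells lie outside the stromal comparisons and the sort removed EpCAM-positive cells. All SI fibroblasts together held 4 Ihh UMIs. The 4 LI cells of that gate held none.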

How the results depend on the processing

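Of 291 alternative values of class ratios past 2-fold, 288 kept the direction and 257 stayed past 2-fold. The 3 reversals concerned Hhip: -0.91 in LI PDGFRAhi FB with male cells only (27 cells, no UMI), and, in LI cells with both mural gates, -1.30 with clusters in place of gates and -0.90 with male cells only (4 cells, no UMI). Male cells only was an alternative chosen after seeing the data.

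With the barcodes of highest UMI count removed, the log2 ratio of LI to SI in fibroblasts was 0.049 for Gli1 and 0.40 for Ptch1, and for Hhip in SMC -0.13. The Ptch1 ratio to other fibroblasts was then 1.35 in LI and 1.46 in SI PDGFRAhi FB and -2.06 in LI Pi16 FB, and the Hhip ratio in SI SMC 5.09. With female cells only, the LI to SI ratio was 0.39 for Ptch1 and 1.38 for Hhip in SMC. The Ptch1 ratio was 1.36 in LI and 1.38 in SI PDGFRAhi FB and -1.19 in SI Pi16 FB, and Hhip in SI SMC 3.67. With male cells only, LI to SI was -0.40 for Gli1, -1.37 for Ptch1 and -1.65 for Hhip in SMC. Ptch1 in PDGFRAhi FB was 3.28 in LI and 1.69 in SI, and in Pi16 FB -2.24 and -2.13, and Hhip in SI SMC 5.01. Male cells also gave a Gli1 share of 1.54% in LI, 492 genes co-detected with Gli1, and 12.8% of genes past 2-fold between LI and SI.

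Clusters in place of gates gave Ptch1 ratios of 1.76 in LI and 1.80 in SI PDGFRAhi FB and of -2.31 and -1.44 in Pi16 FB, and 5.01 for Hhip in SI SMC. Needing 1 more marker gave -2.95 for Ptch1 in LI Pi16 FB and 4.15 and 4.37 for Hhip in LI and SI SMC. The mean of per-cell CPM gave LI to SI ratios of 0.33 for Ptch1 and -0.056 for Hhip in SMC, 1.27 for Ptch1 in LI PDGFRAhi FB and 4.95 for Hhip in SI SMC. A pseudocount of 5 CPM gave 3.80 and 3.84 for Hhip in LI and SI SMC. Thinning to 1000 UMIs gave Gli1 shares of 1.38% and 1.70% and 79 co-detected genes, and for Gli1 with Ptch1 1.37 and 1.26, with intervals that included 1. TMM scaling (factors 0.995 and 1.005) turned the sign of Gli3 in SMC, a ratio near 0, and left the direction of the other 28 LI to SI ratios as it was. The causes of these shifts were not tested.

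No library could be left out, and no paired analysis was possible because each group has 1 library. Sparse detection limits Hhip, Sufu and Gli1, each with a UMI in under 9% of fibroblasts, and few cells limit ICC in SI, with 36.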
